A study of Mus musculus with 2 samples.

Results

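Intraepithelial T lymphocytes are T cells that sit between the epithelial cells of the gut lining. The genes described here are 10 that are known for these cells: the T cell receptor subunits Cd3d, Cd3e and Cd3g, the surface receptors Cd7 and Cd8a, the homing integrin Itgae, the granzymes Gzma and Gzmb, and the receptors Klrd1 and Cd160. A probe set counted for a gene when the platform annotation named that gene and no other. All 10 genes had 1 such probe set each, out of 22180 genes named in this way.

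The mice were outbred ICR males, 7 weeks old and labelled healthy, and RNA was taken from their colons. The psyllium group ate food with 10% psyllium, a gel-forming plant fibre, for 5 days, and the control group ate the diet without the fibre for the same time. Each diet has 1 array of total colon RNA, so no difference has a replicate check and no error or p-value can be given. How many mice contributed to an array, which stretch of colon was taken and whether muscle was kept are not given in the sources used here. Values are normalised intensities on a linear scale, and a difference is the log2 value of the psyllium array minus the log2 value of the control array.

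Intraepithelial T cells are mostly of the killer type and lie in contact with the epithelium. The CD3 chains carry the signal of the T cell receptor into the cell, CD8 binds class I molecules on the partner cell, and the integrin made by Itgae with Itgb7 holds the cell to E-cadherin. Granzymes are the proteases of the killing granules, and Klrd1 and Cd160 belong to a set of receptors shared with natural killer cells. The same 10 genes are also used by T cells of the underlying lamina propria and, in part, by natural killer and other innate lymphoid cells, so total colon RNA does not assign them to the epithelial layer.

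T cell and cytotoxic genes were lower on the psyllium array for 9 of the 10 genes. The median difference was -0.71, or 1.64-fold lower, and the range ran from -1.28 for Cd3e to 0.41 for Cd3d. At least 1.5-fold lower were 6 genes, Cd3e, Gzma, Cd7, Cd3g, Klrd1 and Cd8a, and none was as much higher. Over all 22180 genes 2.80% were at least 1.5-fold lower and 3.42% at least 1.5-fold higher, 50.2% had a negative difference, and the median difference was -0.0025. At least 2-fold lower were Cd3e and Gzma, against 0.451% of all genes. The 10 genes were chosen with earlier results of these data known, so these shares describe them and do not test them. In RNA of a whole tissue, fewer cells of a type and less RNA per cell cannot be told apart.

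Most of the 10 probe sets were dim. An intensity of 69.5, the median over genes of the higher of both values, served as a filter. It was reached on at least 1 array by 5 of the 10 genes, and on both arrays by 3, Cd3e, Cd3g and Cd7. Itgae and Klrd1 passed on the control array alone, so passing the filter and being lower are not independent for them. Of the 5 genes past the filter 4 were at least 1.5-fold lower, where 2.42% of 11090 genes past it were and 4.03% were as much higher. Of the 5 genes below it on both arrays 2, Gzma and Cd8a, were at least 1.5-fold lower, where 3.19% of the other 11090 genes were.

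**Figure D1:**
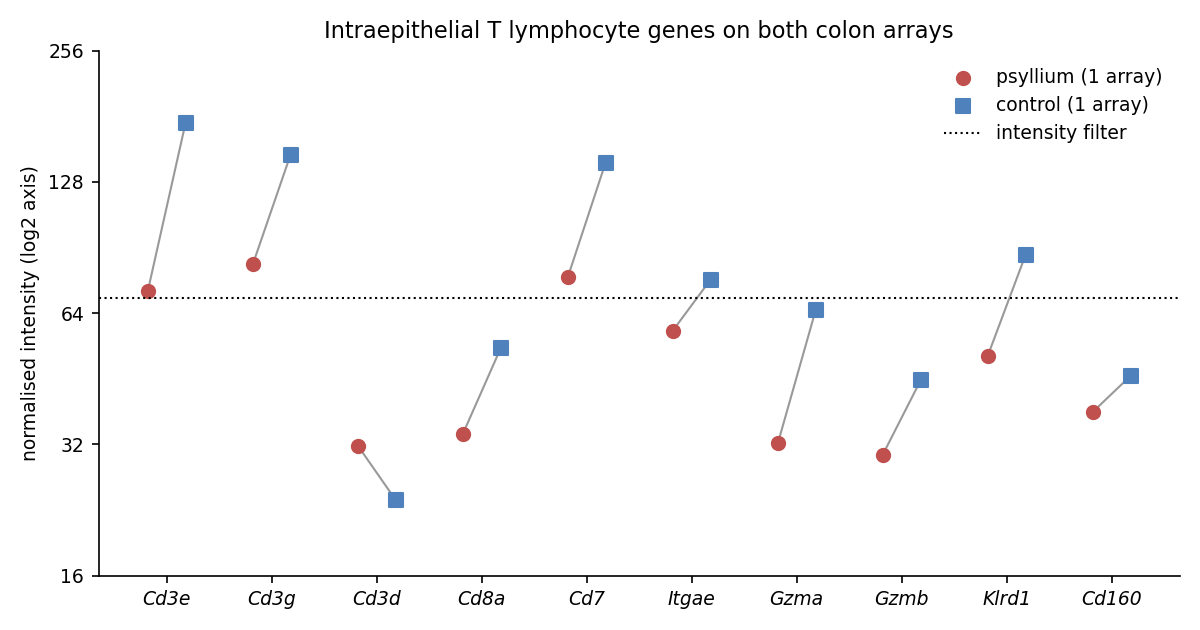
Normalised intensity (log2 axis) of the 10 intraepithelial T lymphocyte genes, with the psyllium array as a circle on the left and the control array as a square on the right of each pair. The dotted line is the intensity filter of 69.5. The psyllium value is the lower one for 9 genes, and Cd3d is the exception.

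The subunits of the T cell receptor did not move as 1 unit. Cd3e had an intensity of 72.0 on the psyllium array, against 175 on the control array, a difference of -1.28 (2.43-fold lower). Cd3g had 82.8 on the psyllium array, against 148 on the control array, a difference of -0.84 (1.79-fold lower). Cd3d, the subunit that pairs with Cd3e in the same receptor, had 31.8 on the psyllium array, against 23.9 on the control array, a difference of 0.41 (1.33-fold higher). Cd3e and Cd3g were therefore lower with both values above the filter, and Cd3d was slightly higher with both values far below it. Among the 11090 genes past the filter 31 had a lower difference than Cd3e and 96 a lower one than Cd3g. Among the genes below the filter 92.2% had a lower difference than Cd3d, so a rise of this size was not rare there. The gap between Cd3e and Cd3d was -1.70. For scale, the median absolute gap between probe sets of the same gene was 0.18 over 332 genes whose probe sets lay past the filter, as Cd3e does. It was 0.25 over 343 genes whose probe sets lay below it, as Cd3d does. These gaps do not measure variation between replicate arrays.

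The 3 CD3 genes are neighbours on mouse chromosome 9, with Cd3g and Cd3d transcribed away from each other. The 250 bases before their start sites are shown because these genes serve 1 receptor complex and yet differed in direction between the arrays. They come from RefSeq promoters of build GRCm38.p6, which list 7 of the 10 genes. The window of Cd3e is chr9:45009612-45009861 on the minus strand, that of Cd3g chr9:44980432-44980681 on the minus strand, and that of Cd3d chr9:44981536-44981785 on the plus strand. Each is written 5′ to 3′ along the gene. Capitals mark matches on either strand to letters bound by factor families of lymphocytes, GGAAGT (ETS), TGTGGT (RUNX) and CAGNTG (E-box), and to the TATA box letters TATAAA.
Cd3e: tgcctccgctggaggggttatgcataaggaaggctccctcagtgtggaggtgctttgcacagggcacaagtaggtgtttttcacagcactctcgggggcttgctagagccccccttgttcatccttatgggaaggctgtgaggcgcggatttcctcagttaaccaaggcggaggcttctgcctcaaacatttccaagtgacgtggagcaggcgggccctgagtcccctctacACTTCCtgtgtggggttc
Cd3g: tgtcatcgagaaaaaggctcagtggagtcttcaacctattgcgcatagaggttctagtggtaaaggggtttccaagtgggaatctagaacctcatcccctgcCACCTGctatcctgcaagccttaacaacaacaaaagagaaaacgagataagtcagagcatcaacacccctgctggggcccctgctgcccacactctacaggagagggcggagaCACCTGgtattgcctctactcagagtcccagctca
Cd3d: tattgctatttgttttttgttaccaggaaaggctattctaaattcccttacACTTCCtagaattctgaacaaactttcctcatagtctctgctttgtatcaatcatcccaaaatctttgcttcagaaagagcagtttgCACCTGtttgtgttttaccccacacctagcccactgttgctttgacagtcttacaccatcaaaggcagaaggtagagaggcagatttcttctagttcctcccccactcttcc
The Cd3e window holds 1 ETS match, which begins 18 bases before the start site, and no E-box match. The Cd3g window holds 2 E-box matches and no ETS match, and the Cd3d window holds 1 of each. None of the 3 holds a RUNX or TATA match. Of 32851 RefSeq promoter windows of the same length 19.7% hold the ETS letters, 14.0% the RUNX letters, 44.8% the E-box letters and 12.4% the TATA letters, so single matches are common. The matches describe the sequence and do not show binding.

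Cd8a, the chain that forms CD8 either with itself or with Cd8b1, was lower. It had an intensity of 33.8 on the psyllium array, against 53.1 on the control array, a difference of -0.65 (1.57-fold lower). Cd8b1, its partner on conventional killer T cells, had 60.9 on the psyllium array, against 61.0 on the control array, a difference of -0.0031. The 2 chains thus differed by -0.65 in their change, and both probe sets lay below the filter. Pairs of Cd8a chains without Cd8b1 are a hallmark of natural intraepithelial T cells, but a transcript level does not show which pairs were formed. Cd7, an immunoglobulin-family receptor of T and natural killer cells, had 77.4 on the psyllium array, against 142 on the control array. Its difference of -0.87 (1.83-fold lower) lies beside that of Cd3g, and 84 of the 11090 genes past the filter had a lower one.

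The homing gene Itgae differed less. Itgae, the alpha E chain also called CD103, had an intensity of 58.4 on the psyllium array, against 76.4 on the control array, a difference of -0.39 (1.31-fold lower). Among the genes past the filter 7.27% had a lower difference. Its partner chain Itgb7 had 52.7 on the psyllium array, against 48.0 on the control array, a difference of 0.13, with both values below the filter. Cdh1, which makes E-cadherin, the epithelial ligand of this integrin, had 1917 on the psyllium array, against 2249 on the control array. Its difference was -0.23. Cdh1 is itself 1 of 24 listed pan-epithelial genes, all of which had negative differences (median -0.28, from -0.57 to -0.01). The difference of Itgae was 0.16 lower than that of this Cdh1 probe set, less than the median gap of 0.18 between probe sets of 1 gene. A second, dimmer Cdh1 probe set, also past the filter, had 195 on the psyllium array, against 263 on the control array. Its difference was -0.44, lower than that of Itgae.

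Granzyme genes were lower and dim. Gzma, a serine protease of cytotoxic granules, had an intensity of 32.2 on the psyllium array, against 65.0 on the control array, a difference of -1.01 (2.02-fold lower). Gzmb, the granule protease that activates caspases, had 30.3 on the psyllium array, against 44.9 on the control array, a difference of -0.57 (1.48-fold lower). All 4 values lay below the filter, where 40 of 11090 genes had a lower difference than Gzma and 380 a lower one than Gzmb. Prf1, the pore-forming perforin of the same granules, went the other way, with 62.8 on the psyllium array, against 54.6 on the control array, a difference of 0.20. Perforin was also below the filter on both arrays.

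The upstream windows of the granzymes are shown because both genes serve the same granules, had negative differences and lie on different chromosomes. That of Gzma is chr13:113100982-113101231 and that of Gzmb chr14:56262335-56262584, both on the minus strand of GRCm38.p6, with capitals as above.
Gzma: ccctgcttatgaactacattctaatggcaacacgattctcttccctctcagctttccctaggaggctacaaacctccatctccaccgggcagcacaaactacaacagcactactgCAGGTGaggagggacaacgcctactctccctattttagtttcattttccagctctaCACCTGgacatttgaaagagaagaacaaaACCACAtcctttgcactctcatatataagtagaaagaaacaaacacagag
Gzmb: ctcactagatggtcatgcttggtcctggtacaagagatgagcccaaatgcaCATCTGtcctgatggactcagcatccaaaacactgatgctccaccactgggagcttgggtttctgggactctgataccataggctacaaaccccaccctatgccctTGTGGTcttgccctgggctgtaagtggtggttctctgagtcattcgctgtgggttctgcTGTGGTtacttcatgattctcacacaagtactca
The Gzma window holds 1 RUNX match and 2 E-box matches, and the Gzmb window holds 2 RUNX matches and 1 E-box match. Neither holds the ETS letters or the exact letters TATAAA. Variants of the TATA box, such as the letters tatataag near the end of the Gzma window, were not searched for. As given above, 14.0% of RefSeq windows hold the RUNX letters and 44.8% the E-box letters. The matches do not show binding or shared control.

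Among the receptors shared with natural killer cells, Klrd1 was lower and Cd160 differed little. Klrd1 makes CD94, which pairs with NKG2 chains. It had an intensity of 51.1 on the psyllium array, against 87.1 on the control array, a difference of -0.77 (1.70-fold lower). Its inhibitory partner Klrc1, the NKG2A chain, had 18.4 on the psyllium array, against 33.4 on the control array, a difference of -0.86, with both values below the filter. H2-T23, which makes Qa-1, the class I molecule this pair binds, had 203 on the psyllium array, against 230 on the control array, a difference of -0.18. Klrc2, another NKG2 chain that pairs with CD94, had 4.43 on the psyllium array, against 3.80 on the control array, a difference of 0.22 far below the filter. Klrd1 thus had a difference near that of Klrc1, and the ligand gene differed less. With a pseudocount of 16 Klrd1 differed by -0.62 and Klrc1 by -0.52, the latter short of 1.5-fold. The values of Klrc2 lie near the lowest deposited intensities, so no contrast is drawn from them. Klrc2 was named after its value was seen. Cd160, a receptor for the herpesvirus entry mediator, had 38.0 on the psyllium array, against 46.0 on the control array, a difference of -0.27 (1.21-fold lower). Below the filter 14.7% of genes had a lower difference than Cd160. Its ligand gene Tnfrsf14, expressed by the epithelium among other cells, had 97.5 on the psyllium array, against 122 on the control array, a difference of -0.32.

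**Figure D2:**
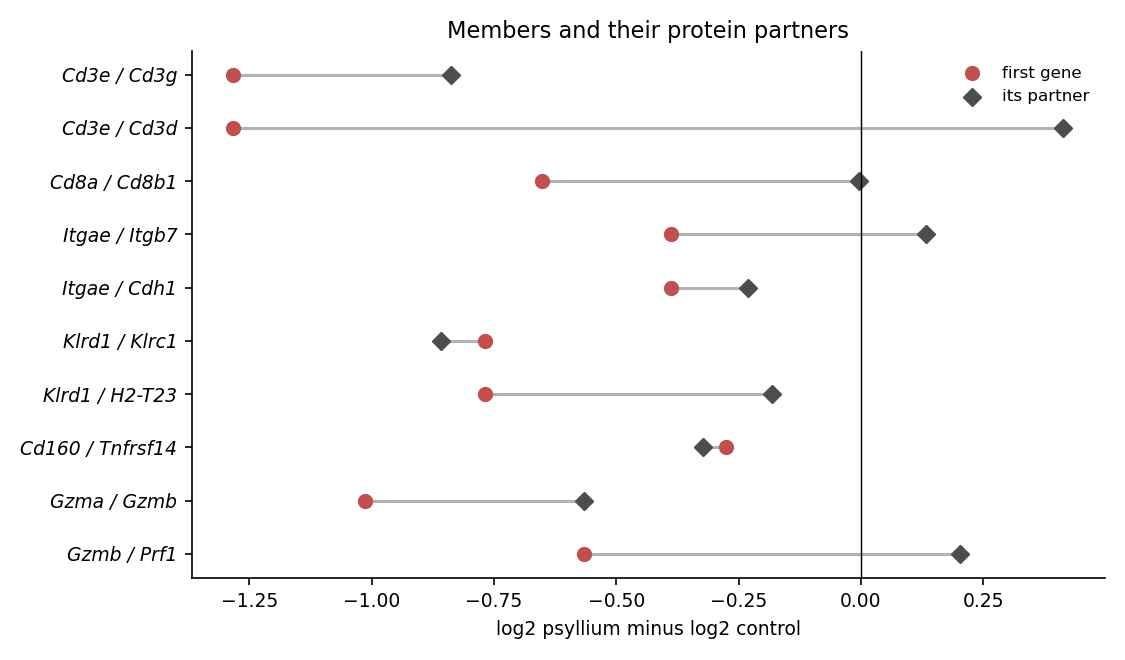
Difference in log2 intensity, psyllium minus control, of intraepithelial T lymphocyte genes (circles) and of genes whose proteins they pair with, bind or act beside (diamonds), 1 line per pair. Klrd1 and Klrc1, and Cd160 and Tnfrsf14, lie close together, whereas Cd3d, Itgb7 and Prf1 lie above 0 and their partners below it.

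**Figure D3:**
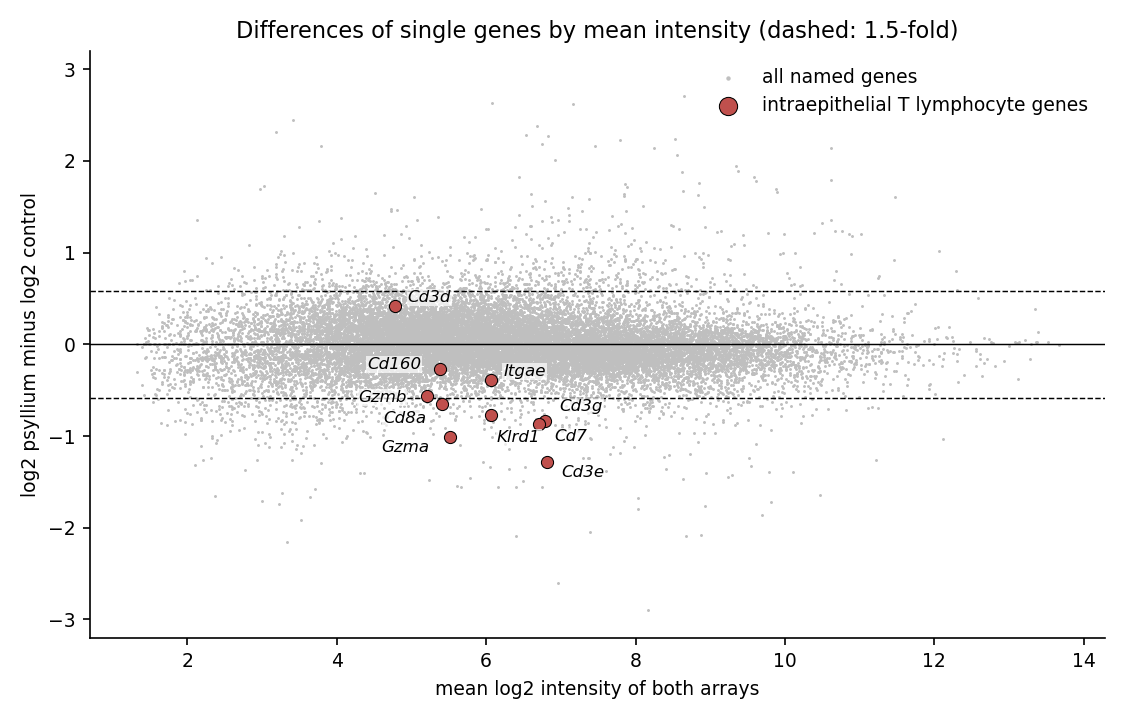
Difference in log2 intensity, psyllium minus control, against the mean log2 intensity of both arrays for 22180 genes (grey) and the 10 intraepithelial T lymphocyte genes (red). Dashed lines mark 1.5-fold. Of the 10 genes 6 lie below the lower line and none above the upper one.

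Other T cell genes had a median nearer to 0. Of 26 listed genes of T cell receptor signalling and the T cell surface 22 were measured by a probe set of their own, 7 of them past the filter. None was 1.5-fold lower or higher, their median was -0.15, and 17 of 22 had negative differences. Bcl11b, a T cell lineage factor also made by other cells, differed by -0.44, and the adaptor Lcp2 had the same deposited value of 116 on both arrays. Cd247, the zeta chain of the receptor, was not analysed here.

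Genes of cytotoxic granules, natural killer receptors and type 1 effectors had a median of -0.11 over 31 genes, with 8 past the filter. Of those 8, the 1 gene past 1.5-fold was Ccl5, a chemokine made by memory and cytotoxic T cells, with 70.9 on the psyllium array, against 139 on the control array (1.96-fold lower). Below the filter Klrc1 was 1.81-fold lower, though short of 1.5-fold with a pseudocount of 16. Klrb1, a lectin receptor named after its value was seen and also below the filter, was 2.09-fold higher. Genes of gut homing and residence had a median of -0.03 over 18 genes, which changed sign under median centring and when only genes bright by their mean over both arrays were kept. Itga1, a collagen receptor chain of tissue-resident T cells that smooth muscle also makes, was 2.10-fold higher, beside a median of 1.19 over 17 smooth muscle genes. Genes of gamma delta and natural intraepithelial T cells had a median of -0.11 over 10 genes. Ikzf2, the factor Helios, was 1.54-fold lower, a difference of -0.62 that became -0.55, short of 1.5-fold, without the intensity trend. Etv5 was 1.65-fold higher, but a second probe set of Etv5 differed by -0.03 at intensities below the filter.

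Helper, regulatory and recirculating T cell genes had a median of -0.20 over 17 genes, with 13 negative. The median turned positive (0.03) among genes whose mean over both arrays was at or above the median. The adhesion receptor Cd44, which epithelial and connective tissue cells also make, was the 1 gene past 1.5-fold (1.88-fold higher). Cd44 alone of this list was among the 7394 genes brightest by mean intensity. None of the 8 genes past the filter was 1.5-fold lower. Innate lymphoid genes had a median of 0.0043 over 11 genes, negative without the intensity trend, and Ltb, a lymphotoxin chain of lymphocytes, was 1.53-fold lower (65.3 on the psyllium array, against 100.2 on the control array). Its difference of -0.62 fell short of 1.5-fold under median centring (-0.58) and with a pseudocount of 16 (-0.51). Ltb passed the filter on the control array alone, so passing it and being lower are not independent.

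Epithelial ligands and growth factors of intraepithelial T cells had a median of -0.18 over 23 genes, with 16 negative, beside -0.28 for pan-epithelial genes. Of 15 past the filter 2 lay at least 1.5-fold down and none as much up. Il18, a cytokine of the epithelium that stimulates interferon production by T cells, had 280 on the psyllium array, against 642 on the control array (2.29-fold lower). Btnl2, a butyrophilin-like protein of the gut that restrains T cells, had 114 on the psyllium array, against 185 on the control array (1.62-fold lower). Il15, the cytokine on which many intraepithelial T cells depend, differed by -0.07 (484 on the psyllium array, against 507 on the control array). Btnl1, which in mice maintains gamma delta T cells of the gut epithelium, differed by -0.50 (395 on the psyllium array, against 558 on the control array). Il15 and Btnl1 were named after their values were seen.

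Markers of other cells moved in several directions between the arrays. Pan-leukocyte genes had a median of -0.02 over 18 genes, which turned positive under median centring and among the 7394 brightest genes. None of these 18 was past 1.5-fold, and their summed intensity was 1905 on the psyllium array, against 1941 on the control array. The summed intensity of the 10 intraepithelial T lymphocyte genes was 508 on the psyllium array, against 861 on the control array. Over 16 macrophage and dendritic cell genes the median was 0.29, with 3 negative. The scavenger receptors Mrc1 and Cd163 were 2.33-fold and 1.71-fold higher, and Cd163 passed the filter on the psyllium array alone. Cd14 and Itgax, named after their values were seen, went the other way (-0.45 and -0.40). The 12 measured B cell genes all had negative differences (median -0.22), and the median of 15 endothelial genes was 0.06.

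Markers of the layers of the gut wall differed as well. Pan-epithelial genes, with 24 of 24 past the filter, had a summed intensity of 34912 on the psyllium array, against 41630 on the control array. Smooth muscle genes had a summed intensity of 37100 on the psyllium array, against 15583 on the control array, with 16 of 17 at least 1.5-fold higher. Fibroblast and matrix genes had 18120 on the psyllium array, against 7356 on the control array, with 13 of 17 at least 1.5-fold higher. The part of these differences in the lower T cell values was not tested.

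**Figure D4:**
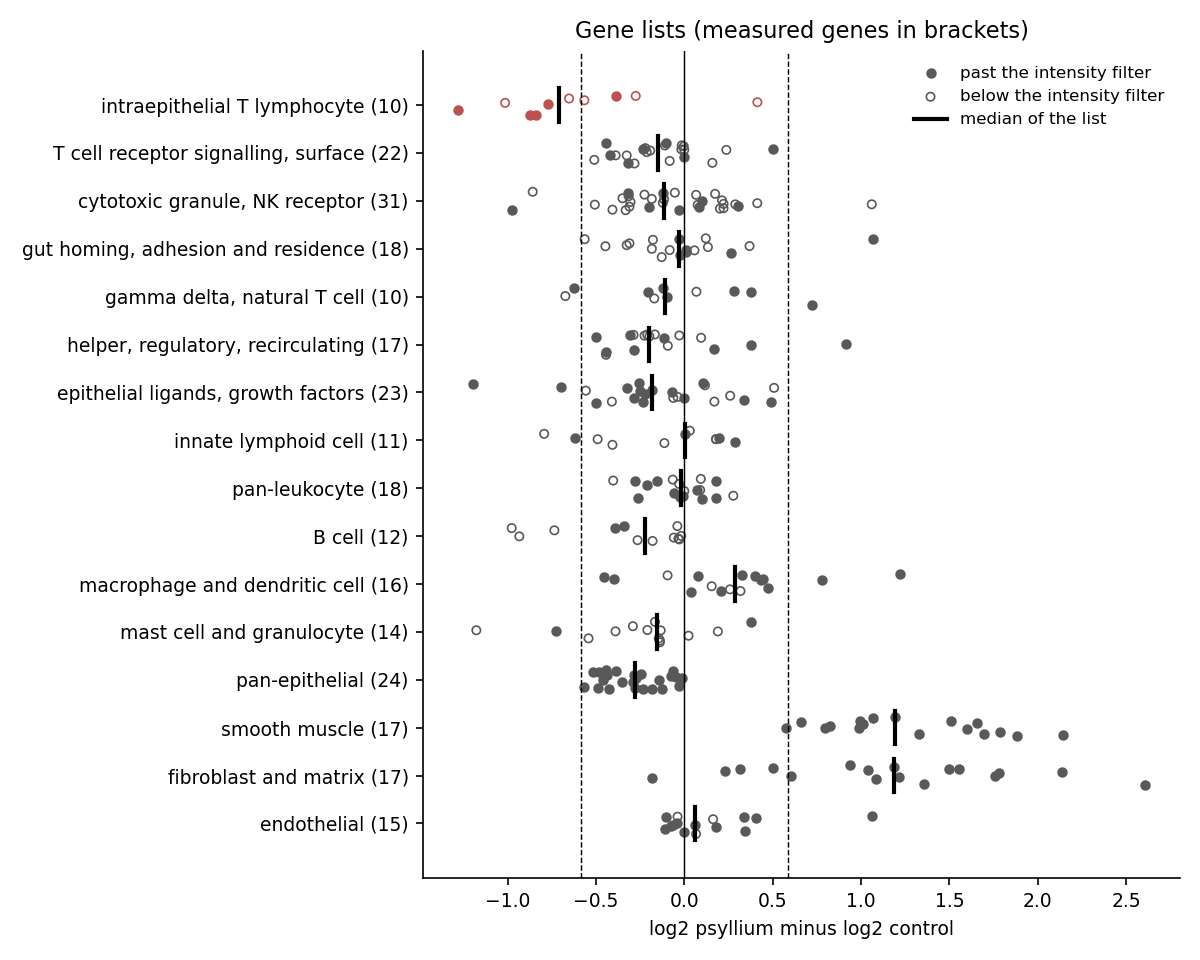
Difference in log2 intensity, psyllium minus control, of single genes (points, filled where past the intensity filter) in the 10 intraepithelial T lymphocyte genes and 15 other lists, with the median of each list as a bar. Dashed lines mark 1.5-fold. The intraepithelial T lymphocyte median is -0.71, the pan-leukocyte median -0.02, the pan-epithelial median -0.28 and the smooth muscle median 1.19.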

How the data were processed

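Total RNA from colons was labelled with biotin by a whole-transcript kit and hybridised to arrays, per the labels' protocols. Each deposited value is the linear, normalised intensity of a probe set. The submitters' processing notes list RMA and Affymetrix Expression Console, with no version of either. The order of steps, the annotation and the genome build are not given in the sources used here. The deposited intensities ran from 1.76 to 13841 on the psyllium array (median 49.8) and from 1.92 to 13675 on the control array (median 48.9). They were converted to log2 with no pseudocount. The number of arrays, 1 per diet, limits the precision, so no test was run.

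Of 41345 probe sets 23521 named 1 gene, 1814 several and 16010 none. Symbols were updated by gene number through a RefSeq table of GRCm38.p6, which held 23328 of the 23521. A gene with several probe sets, as 1082 of 22180 had, was represented by the one with the highest mean. Other genes were named by a fixed rule: protein partners of the 10 genes, and of each list up to 5 genes past the filter and past 1.5-fold, or else up to 2 with the highest level. For muscle, matrix and some other lists fewer were printed. The 10 genes, the 15 other lists and the rules were chosen with earlier results of these data known. With 2 arrays a gene has 1 difference, so no gene was sought for a like pattern. A check on simulated data covered only whether the scripts return folds added to genes and remove a known intensity trend. It does not measure noise between arrays. Scripts used Python 3.11.15, pandas 2.3.3 and numpy 2.4.6.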

Additional observations from a re-analysis of the deposited data

How the results depend on the processing

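Alternatives were the mean of probe sets, further quantile normalisation, median centring, removal of the intensity trend, a pseudocount of 16, the platform's symbols, and other filters and folds. The filter on the mean of both arrays was added after the data were seen. The differences of the 10 genes kept their sign under all 6 alternatives run on them. Of these, a pseudocount cannot change a sign, and averaging probe sets or using the platform's symbols repeated the main values. The median of the 10 genes ranged from -0.75 to -0.55 over the 6. Among the 5 genes past the filter the median was -0.84, and the filter on the mean kept the same 5 genes. With the pseudocount Gzma differed by -0.75, and Cd8a by -0.47, which is no longer past 1.5-fold. Gzmb reached 1.5-fold under further quantile normalisation (-0.59) and without the intensity trend (-0.63), which makes 7 genes in place of 6 there. Each of the 10 genes has 1 probe set, so averaging probe sets repeats their values. The count of 4 of these genes past the filter and 1.5-fold lower became 1 at 2-fold and 0 among the 7394 genes brightest by mean intensity, which hold none of the 10. Without a filter 622 genes were 1.5-fold and 100 genes 2-fold lower, against 268 and 57 with it, and 759 were 1.5-fold higher, against 447. Among those 7394 brightest genes 272 were 1.5-fold higher. No paired analysis was possible because each diet has 1 array. Low signal limits 7 of the 10 genes, which lay below the filter on the psyllium array. The filter is a median over genes, and no background level was estimated.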

Other observations

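Single genes of other mucosal immune cells had low values on the psyllium array. Mcpt1, a protease of mucosal mast cells, had an intensity of 57.2 on the psyllium array, against 94.6 on the control array, a difference of -0.73. Mcpt2, its relative in the same cells, had 19.2 on the psyllium array, against 43.3 on the control array, a difference of -1.18, below the filter on both. Of 14 mast cell and granulocyte genes Mcpt1 alone was past both the filter and 1.5-fold. It passed the filter on the control array alone, so passing it and being lower are not independent. Kit, a receptor that pacemaker cells also make, differed by 0.38. The list had a median of -0.16, and Kit alone of it was among the 7394 genes brightest by mean intensity. Of B cell genes the lowest were Spib, Ms4a1 and Cr2, which differed by -0.98, -0.93 and -0.74, all below the filter on both arrays. None of 12 B cell genes was past both the filter and 1.5-fold, and the B cell receptor chains Cd79a and Cd79b differed by -0.03 and -0.06. Spib had 27.8 on the psyllium array, against 54.7 on the control array, and Ms4a1, the B cell antigen CD20, had 17.9 on the psyllium array, against 34.2 on the control array. Mcpt2, Kit, Spib, Ms4a1, Cr2, Cd79a and Cd79b were named after their values were seen.

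Some ligands, and the receptor Jaml, lie in probe sets that name several genes and stayed out of the comparison. The probe sets given here were not named by the fixed rule. The probe set naming H2-T3 and H2-T18, whose thymus leukaemia antigen binds CD8 alpha chains, had 730 on the psyllium array, against 935 on the control array, a difference of -0.36. The one naming Btnl6 and Btnl4 had 228 on the psyllium array, against 290 on the control array, a difference of -0.35. The probe set naming Raet1e and Raet1d differed by -0.47, and the one naming H2-T22 and H2-T9 by -0.39. Jaml, a receptor of gut gamma delta T cells in mice, is named together with Gm10684 by 2 probe sets. The brighter had 61.2 on the psyllium array, against 77.1 on the control array, a difference of -0.33. The other had 19.7 on both arrays.

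T cell receptor gene segments were named by 21 probe sets of 8 genes, which hold 19 distinct pairs of values. Over these 19 pairs the median difference was 0.0, with 9 negative and 9 positive. At least 1.5-fold lower were 5 of them, down to -1.05, and none was 1.5-fold higher, the highest being 0.40. Over all 22180 genes, each by its brightest probe set, 2.80% were as much lower and 3.42% as much higher. The lowest, -1.05 and -0.90, were both probe sets of Trav9d-3, whose other probe sets differed by 0.05, 0.09 and -0.47. The rest of the 5 had intensities of at most 18.4 on either array. The filter was reached by 3 pairs, 1 of them among the 5.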
